A study of Micropterus salmoides with 68 samples.

Results

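This account follows 33 genes of the complement system, of blood clotting and of the serpin family in largemouth bass (Micropterus salmoides), out of 18666 genes measured. They were chosen by name alone: every gene whose symbol matched a fixed pattern for complement components (c1 to c9, cfb, cfd, cfh, cfi, masp), clotting factors, fibrinogen chains, plasminogen, protein C and serpins, with 4 matching names left out by the rule. No member was named c6, cfb, cfh, fgg or serpinc1. The pattern also took c1d, which encodes a nuclear RNA-processing protein in mammals and shares only letters with complement, so its values are given apart.

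RNA was sequenced from liver and spleen, with 34 libraries per tissue, each from tissue taken from a single fish. Fingerlings from a concrete pond, which weighed 11.99 ± 4.34 g, were sampled right after netting, before transport (T0), at the end of a 4 h transport in aerated boxes with 125 fish in 30 L of water (Te), and after 1 day of recovery in indoor tanks (R1d). After 3, 4 and 5 days, fish that the labels call abnormal (AB) and fish that they call normal (NO) were sampled side by side. There were 4 libraries per group and tissue, except 3 per label on day 3. All fish were fed to satiation until transport and got no feed during the experiment. The labels do not say what made a fish abnormal or normal, and no untransported fish of a later day is analysed here. Transport cannot be told apart from elapsed time, lack of feed or the move to tanks in any comparison with T0. Each p-value rests on the spread between single fish within groups, pooled over all groups in the fit. No term for transport, box or tank was in the fit.

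Complement is a chain of plasma proteases and pore-forming proteins: antibody-bound C1q, or the MASP proteases on sugar-binding lectins, start it, factor D drives the alternative route, and cleavage of C5 lets C7, C8 and C9 join the pore that perforates a target cell. Clotting runs through a similar chain, from tissue factor and factor VII through factors IX, VIII and V to fibrinogen, while protein C switches off factors V and VIII and plasmin, made from plasminogen, dissolves the clot. Serpins are inhibitors that trap such proteases, with the exception of a few members such as the collagen chaperone Hsp47. In vertebrates the liver makes most of these plasma proteins, and the spleen holds macrophages, which are a main source of C1q.

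Levels are in TPM, a share of all transcripts of a library scaled for transcript length, which keeps no record of sequencing depth, so depth is unknown and no counting error can be given. Differences are in log2(TPM + 1), which understates the change of low genes, and were tested with limma across all genes of a tissue (15430 in liver, 17998 in spleen), with Benjamini-Hochberg adjusted p under 0.05 as the threshold for a call. In liver 32 members were tested and in spleen 31 (masp2 and f7l were too low). The tissue labels fitted the hepatocyte markers, whose summed level ran from 71085 to 199091 TPM in livers and from 204 to 7344 TPM in spleens. The liver of T0 fish 4 stood apart, with c5 at 2330 TPM against 263 to 314 TPM in the other T0 livers, and the liver of R1d fish 3 lay apart from its group. Several results that rest on them are given with and without them, and other T0 means and ranges include T0 liver 4.

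Before transport, liver and spleen expressed different parts of the set. In T0 livers the fibrinogen chain gene fgb reached 6136, 7876, 5954 and 10316 TPM, against 12.3, 15.5, 6.41 and 3.05 TPM in T0 spleens, and it stood at place 18 among all liver genes by mean TPM. The other fibrinogen chain, fga, stood at place 31 and the pore protein gene c9 at place 56. These means include T0 liver 4, which had 7144 TPM of fga and 4300 TPM of c9. Liver exceeded spleen in 19 members and was below it in 8, while 6 did not pass the test (78.8% of all 18666 genes were called, 11% higher and 67.8% lower). Liver and spleen values did not overlap in 26 members, against 63.5% of all genes.

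The 8 members higher in spleen included c1qb, cfd, serpine2, serpina10a and the serpinh genes serpinh1a, serpinh1b and serpinh2. The C1q chain gene c1qb had 23.8, 30.0, 50.7 and 56.7 TPM in T0 livers, against 1699, 2553, 1401 and 1808 TPM in T0 spleens (log2 difference -5.55, SE 0.45, limma adjusted p = 3.35e-16). The factor D gene cfd had 185, 242, 921 and 318 TPM in T0 livers, against 3579, 3145, 3516 and 3264 TPM in T0 spleens. Neither gene's liver and spleen values overlapped, so this 1 chain gene of the classical starter and the protease gene of the alternative route were higher in spleen. The pore genes c5, c8a, c8b, c8g and c9 were higher in liver. Of the 6 terminal complement genes c7a did not pass, at 0.260 to 1.93 TPM in T0 livers and 0.360 to 4.52 TPM in T0 spleens. For serpina10a the call ended without T0 liver 2 (limma adjusted p = 0.102), and its log2 difference was -0.75 with and -1.14 without T0 liver 4. Median-of-ratios rescaling, which moved the median of all genes by 0.98 here, turned its call to higher in liver (0.62, limma adjusted p = 0.00211), and 25 members were then higher and 7 lower in liver.

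The question that the labels pose most directly is how fish called abnormal differed from fish called normal after 3 to 5 days. In liver 15 members were higher in AB than in NO fish over the mean of the 3 days, 6 were lower and 11 did not pass (21 of 32 called, against 50.4% of all genes tested, 29.1% higher and 21.3% lower). The median member difference was 0.36, beside 0.09 over all genes, and the labels did not overlap in 13 members, against 13.4% of all genes. By role, 2 complement starters were higher in AB livers and 1 was lower, both regulators were higher, 2 terminal complement genes were higher and 3 lower, 2 of 4 clotting factors were higher, and both fibrinogen chains were lower. The factor VII-like gene f7l was in no role list and is not among those 4. With AB and NO livers alone in the fit 27 members were called, 19 higher and 8 lower. Summed over the 33 members, levels made up 2.00 to 2.78% of all TPM in the 11 AB livers and 3.27 to 4.72% in the 11 NO livers, without overlap. The largest parts of that sum were fgb, fga and c9, all lower in AB livers, while 15 of the 21 called members were higher. Their medians in NO livers were 13276, 8072 and 7349 TPM, beside a median sum of 36280 TPM. In pieces of tissue, fewer cells of a type and less RNA per cell cannot be told apart.

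The lectin-route protease gene masp1 showed the largest liver difference of the set. AB livers held 15.2 to 58.8 TPM of it (median 37.5, n = 11), against 1.82 to 7.30 TPM in NO livers (median 3.32, n = 11). Every AB liver lay above every NO liver, and the log2 difference was 3.04 (SE 0.22, limma adjusted p = 2.73e-12). Its partner protease gene masp2 had 27.2 to 58.4 TPM in AB livers (median 36.8), against 10.5 to 24.2 TPM in NO livers (median 14.7), again without overlap (1.30, SE 0.18). The third starter, c1qb, moved the other way, with 12.1 to 78.4 TPM in AB livers (median 25.4), against 35.7 to 104 TPM in NO livers (median 54.7), and its groups overlapped (-1.01, SE 0.30, limma adjusted p = 0.00578). The factor D gene cfd had 85.9 to 327 TPM in AB livers, against 35.8 to 117 TPM in NO livers (1.36, SE 0.28), with some overlap.

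**Figure D1:**
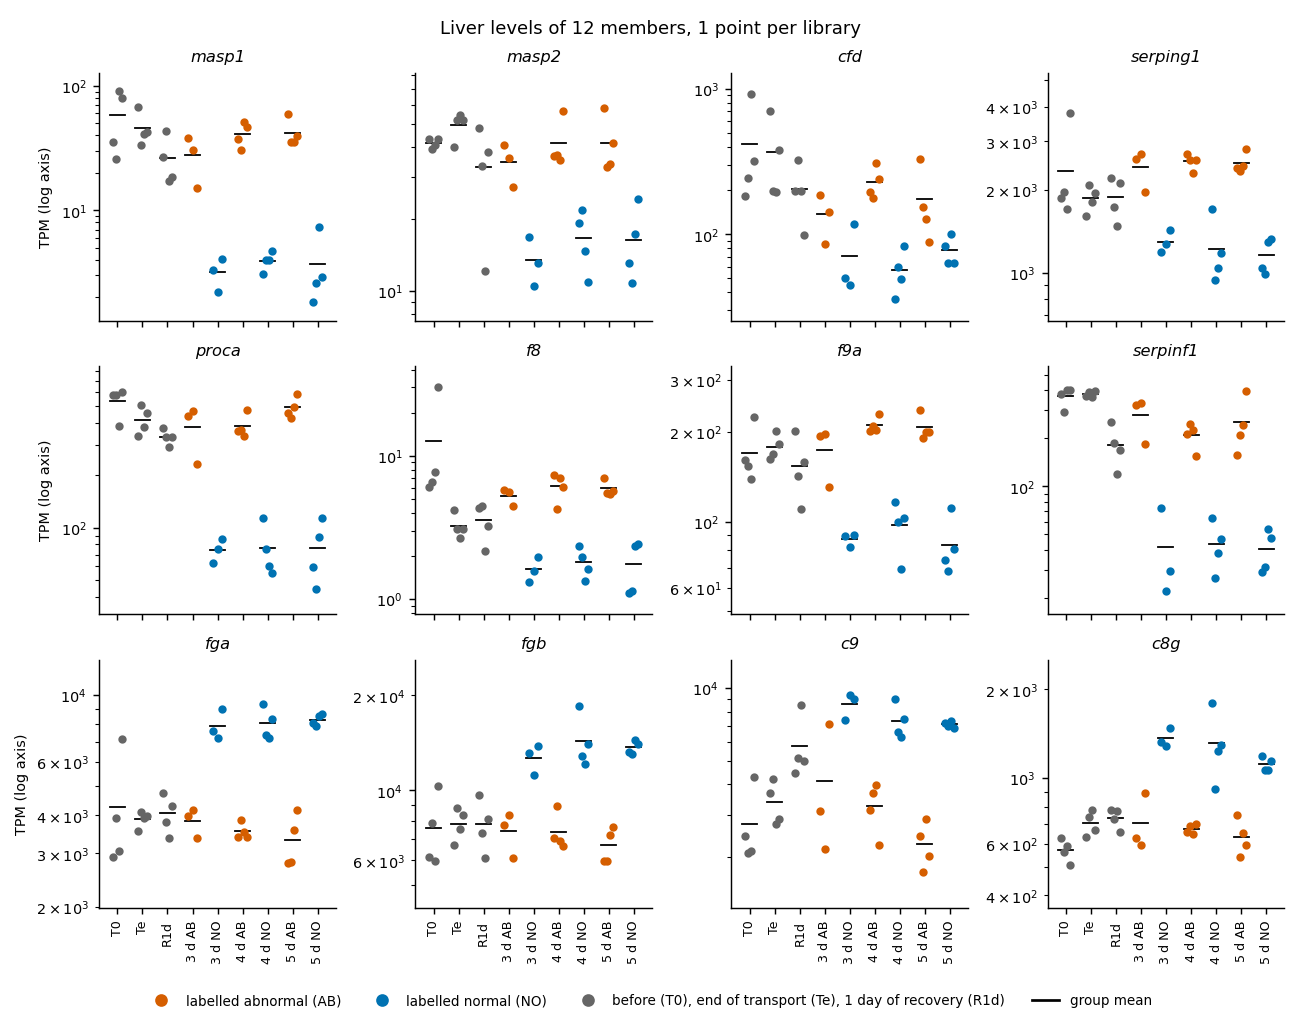
Liver TPM on log axes of 12 members in the 9 groups, 1 point per library and a bar at the group mean. In masp1, proca, serpinf1 and f8 every AB liver lies above every NO liver, and in fga, fgb and c8g every AB liver lies below every NO liver.

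The genes of the membrane pore did not move together. The subunit gene c9 had 1737 to 7131 TPM in AB livers (median 2889), against 6286 to 9357 TPM in NO livers (median 7349), and AB liver 3 of day 3 was the one AB value inside the NO range (-1.36, SE 0.17, limma adjusted p = 7.98e-08). C8, which joins the pore just before C9, is built in mammals from alpha, beta and gamma chains. The beta chain gene c8b was higher in AB livers, with 623 to 1134 TPM against 346 to 596 TPM in NO livers (0.71, SE 0.14). The gamma chain gene c8g was lower in AB livers, with 542 to 889 TPM against 920 to 1802 TPM in NO livers (-0.91, SE 0.10). For both of these chains the AB and NO groups were apart. The alpha chain gene c8a was lower in AB livers as well, with 377 to 681 TPM against 473 to 716 TPM in NO livers (-0.45, SE 0.12, limma adjusted p = 0.00220), and its groups overlapped.

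Within a library, c8g stood at 0.659 to 1.12 times the level of c8b in AB livers, against 1.79 to 3.42 times in NO livers. In T0 livers it stood at 0.319 to 0.773 times, so that c8g exceeded c8b in every NO liver and in no T0 liver. The lowest of these was T0 liver 4, and the other T0 livers stood at 0.70 to 0.77 times. The ratio of c9 to c8b was 2.72 to 6.29 in AB livers and 12.3 to 20.8 in NO livers, against 2.60 to 2.88 in T0 livers. These ratios are descriptions and were not tested. The convertase target c5 did not pass (0.35, SE 0.24, limma adjusted p = 0.237), but did with AB and NO livers alone in the fit (limma adjusted p = 0.0331), with 279 to 808 TPM in AB livers and 222 to 439 TPM in NO livers. A gene named c7a, one of the pore's C7 genes, was hardly expressed, at 0.200 to 2.05 TPM in AB livers and 0 to 0.490 TPM in NO livers. Its call (0.35, limma adjusted p = 0.0419) ended on leaving out any of 13 of the 22 livers (limma adjusted p up to 0.0917). Its paralogue c7b, which is outside the rule, had 88.9 to 2463 TPM in AB livers and 1207 to 2793 TPM in NO livers (-2.17, SE 0.41).

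**Figure D2:**
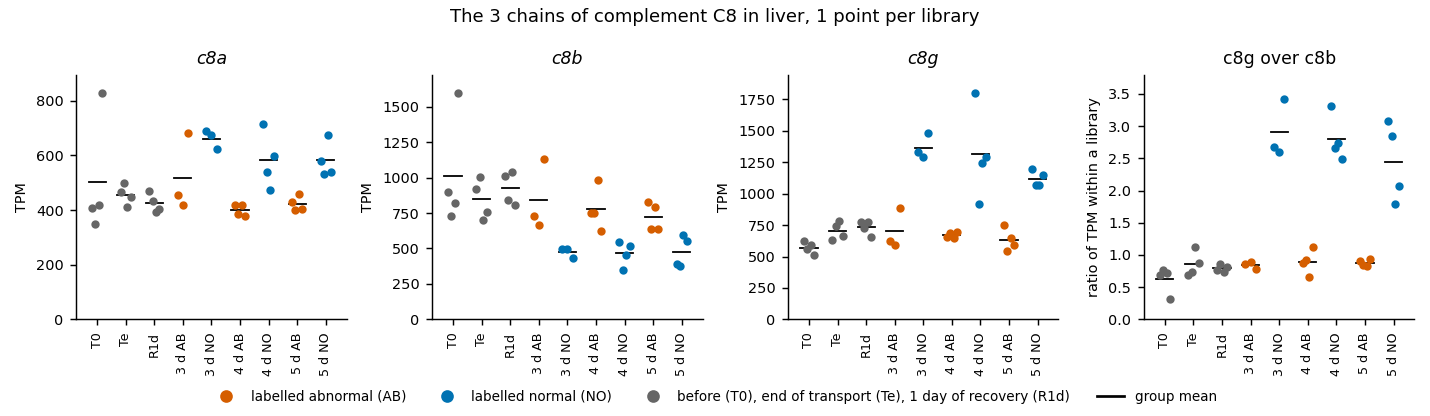
Liver TPM of the 3 chains of complement C8 and the ratio of c8g to c8b within a library, in 9 groups, 1 point per library and a bar at the group mean. The ratio lies between 1.79 and 3.42 in NO livers and at most 1.12 in AB livers.

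Both complement regulators of the set were higher in AB livers. The gene serping1 encodes C1 inhibitor, the serpin that shuts down C1 and the MASPs, and had 1971 to 2807 TPM in AB livers (median 2561), against 937 to 1709 TPM in NO livers (median 1186), without overlap (1.03, SE 0.13, limma adjusted p = 6.23e-08). Factor I, the protease that inactivates C3b, is encoded by cfi, which had 463 to 674 TPM in AB livers against 298 to 499 TPM in NO livers (0.55, SE 0.14). AB and NO livers overlapped for cfi.

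Among clotting factors the cofactor gene f8 had 4.22 to 7.34 TPM in AB livers (median 5.69), against 1.1 to 2.41 TPM in NO livers (median 1.62). The protease gene f9a had 131 to 237 TPM in AB livers (median 201), against 68.4 to 116 TPM in NO livers (median 89.7). AB and NO livers did not overlap for either gene, and both were higher in AB (1.32, SE 0.18, and 1.14, SE 0.12). The factor VII-like gene f7l also parted the labels, with 100 to 171 TPM in AB livers and 36.2 to 64.4 TPM in NO livers (1.61, SE 0.13, limma adjusted p = 4.52e-11). Cofactor gene f5 did not pass, at 72 to 113 TPM in AB livers and 76.4 to 139 TPM in NO livers (-0.20, SE 0.22), and neither did tissue factor f3a, at 1.56 to 4.61 TPM in AB livers and 2.30 to 5.07 TPM in NO livers (-0.32, SE 0.14, limma adjusted p = 0.0578). After median-of-ratios rescaling f3a was called lower (-0.43, limma adjusted p = 0.00326).

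Both measured chain genes of fibrinogen, the protein of the clot itself, were lower in AB livers. The chain gene fga had 2778 to 4185 TPM in AB livers (median 3523), against 7219 to 9346 TPM in NO livers (median 8072; -1.19, SE 0.12, limma adjusted p = 1.29e-09). The other chain, fgb, had 5947 to 8886 TPM in AB livers (median 7068), against 11161 to 18536 TPM in NO livers (median 13276; -0.92, SE 0.11). For both chains all 11 AB livers lay below all 11 NO livers. The ratio of fgb to fga within a library was 1.81 to 2.30 in AB livers and 1.54 to 1.98 in NO livers.

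Of 7 members that hold back clotting or act in fibrinolysis, 3 were higher in AB livers and 4 did not pass (against 50.4% of all genes called, 29.1% higher and 21.3% lower). Protein C, the protease that cuts factors V and VIII, is encoded by proca, which had 233 to 590 TPM in AB livers (median 439), against 44.6 to 114 TPM in NO livers (median 75.5). Every AB liver lay above every NO liver, with a log2 difference of 2.46 (SE 0.16, limma adjusted p = 1.44e-13). Antiplasmin inhibits plasmin and so protects the clot, and its gene serpinf2a had 97.7 to 154 TPM in AB livers against 42.7 to 81.7 TPM in NO livers, without overlap (1.07, SE 0.15), whereas its paralogue serpinf2b had 436 to 634 TPM in AB livers and 352 to 582 TPM in NO livers and did not pass (0.13, SE 0.13). The gene serpina10a, a relative of the mammalian inhibitor of activated factor X, had 16.3 to 54.8 TPM in AB livers and 9.86 to 16.4 TPM in NO livers, with a narrow overlap (1.19, SE 0.18). Plasminogen gene plg and heparin cofactor gene serpind1 did not pass, with log2 differences of 0.32 (SE 0.16) and 0.09 (SE 0.10), although plg passed with AB and NO livers alone in the fit (limma adjusted p = 0.0325). Nor did serpine2 pass, with a median of 4.90 TPM in AB livers and 7.29 TPM in NO livers. It was called with AB and NO livers alone in the fit and after median-of-ratios rescaling.

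Of the remaining serpins, serpinf1, which encodes a secreted serpin with no protease target known in mammals, had 156 to 397 TPM in AB livers (median 226), against 22.1 to 72.7 TPM in NO livers (median 38.4). The labels did not overlap (2.58, SE 0.19, limma adjusted p = 4.57e-12). Of serpinh1a, serpinh1b, serpinh2 and serpini1, only serpini1 was called (0.37, limma adjusted p = 0.0149), at 0.480 to 2.06 TPM in AB livers and 0.340 to 1.17 TPM in NO livers. The difference of serpinh1b, 0.39 (SE 0.19, limma adjusted p = 0.0858), passed with a pseudocount of 0.1 (0.89, limma adjusted p = 0.0112), after rescaling (0.33, limma adjusted p = 0.0171) and with AB and NO livers alone in the fit (limma adjusted p = 0.00521). The gene c1d did not differ beyond the test's threshold (0.20, SE 0.13).

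The label difference was present on each day. Called members numbered 14 on day 3 (10 higher, 4 lower, against 17.7% of all genes, 7.65% higher and 10.1% lower), 18 on day 4 (13 higher, 5 lower, against 26.1%, 17.7% higher and 8.42% lower) and 16 on day 5 (12 higher, 4 lower, against 28.8%, 18.1% higher and 10.7% lower). After median-of-ratios rescaling the day 5 split was 11 higher and 6 lower. Leaving out 1 liver at a time gave 10 to 14 called members on day 3, 15 to 18 on day 4 and 14 to 16 on day 5. On day 3 the call of c8b ended without any of 5 of the 6 livers, and that of f8 without any of 3. The day 4 call of c8a ended without any of 7 of the 8 livers, and the day 5 calls of c8b and cfi each without any of 4. A moderated F test of whether the difference changed with the day called 0 members and 0 of all genes by limma, with 0 members and 290 genes at an unadjusted p under 0.05. On day 3, masp1 had 38.1, 30.8 and 15.2 TPM in AB livers, against 3.32, 2.21 and 4.06 TPM in NO livers. On day 5 it had 58.8, 35.5, 35.1 and 39.2 TPM in AB livers, against 1.82, 2.62, 7.30 and 2.92 TPM in NO livers. In both cases the labels were apart by a wide gap.

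Each label was also set against T0. In NO livers 4 members were higher than at T0 and 18 lower (22 of 32, against 51.6% of all genes, 16.9% higher and 34.7% lower), and in AB livers 0 were higher and 2 lower (against 9.28% of all genes, 2.62% higher and 6.66% lower). These comparisons share the T0 livers, and each also shares its libraries with the comparison of labels. The 2 lower in AB livers were serpinh1b and serpinh2, and the count was 5, 7 and 4 on leaving out T0 liver 1, T0 liver 2 and the AB liver 1 of day 5. The 4 higher in NO livers were fga, fgb, c8g and c9 (1.02, 0.87, 1.13 and 1.54). After median-of-ratios rescaling NO livers had 7 members higher and 16 lower than T0 livers, and without T0 liver 4 they had 6 higher and 18 lower. For masp1, NO livers had 1.82 to 7.30 TPM against 35.1, 25.6, 91.0 and 80.0 TPM in T0 livers (-3.55, SE 0.30), and proca and serpinf1 likewise lay below all T0 livers (-2.84 and -3.20). Without T0 liver 4, the falls of cfi and serpina10a in NO livers shrank to -0.34 and -0.69 on the log2 scale, against -0.69 and -1.09 with it.

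Markers of several cell types moved with the labels in liver. The summed level of 24 hepatocyte markers was 141858 to 199091 TPM in AB livers and 71085 to 109205 TPM in NO livers. The 7 red blood cell markers summed to 963 to 5125 TPM in AB livers and 120 to 720 TPM in NO livers, and the 16 endothelial and stromal markers to 147 to 365 TPM in AB livers and 49.0 to 89.8 TPM in NO livers. In none of these lists did AB and NO livers overlap. The 5 macrophage markers, which could bear on c1qb, overlapped, at 85.6 to 228 TPM in AB livers and 53.3 to 191 TPM in NO livers. No marker of any list was at 0 in every AB or every NO liver, but the hepatocyte marker fabp10a was at 0 in all NO livers of days 3 and 4. The part of cell makeup in the member differences was not tested.

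Other genes of the same pathways, outside the rule, were counted in liver as well. Of 9 further complement genes, 5 were higher in AB livers, 2 lower and 2 did not pass, with a median difference of 0.94, beside the 50.4% of all genes called (29.1% higher, 21.3% lower). The collectin genes colec11 and colec10, whose proteins carry the MASPs onto sugars, were the largest rises: colec11 had 18.8 to 45.2 TPM in AB livers and 1.71 to 5.54 TPM in NO livers (3.02, SE 0.24), and colec10 had 21.4 to 49.0 TPM in AB livers and 5.57 to 10.4 TPM in NO livers (1.73, SE 0.20). Of 24 further clotting and fibrinolysis genes, 15 were higher, 3 lower and 6 did not pass (median 0.66). Kininogen gene kng1 was the largest rise among them (1.81, SE 0.13), and lman1, a cargo receptor that carries factors V and VIII out of the endoplasmic reticulum, the largest fall (-1.30, SE 0.30).

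At the end of transport few liver members passed the test. Only f8 and serpinh1b were called, both lower in Te livers (2 of 32, against 12.2% of all genes, 2.96% higher and 9.27% lower). The gene f8 had 4.17, 3.08, 2.65 and 3.06 TPM in Te livers, against 6.05, 6.58, 7.70 and 30.1 TPM in T0 livers, and all Te values lay below all T0 values (-1.38, SE 0.30, limma adjusted p = 0.00378). Without T0 liver 4 the difference was -0.88 (limma adjusted p = 0.00837). Hsp47 gene serpinh1b, whose product folds collagen, had 6.91, 1.13, 4.01 and 3.28 TPM in Te livers, against 6.59, 4.04, 8.48 and 17.4 TPM in T0 livers, with overlap (-1.05, SE 0.31). Its call ended without T0 liver 3, T0 liver 4 (-0.71), Te liver 2 or Te liver 4 (limma adjusted p up to 0.154), and with a pseudocount of 0.1 (limma adjusted p = 0.0711). Endothelial and stromal markers summed to 172 to 631 TPM in Te livers and 234 to 2557 TPM in T0 livers, and their part was not tested. The count of called members was 1 without T0 liver 4, Te liver 2 or Te liver 4, 4 without T0 liver 2, and 0 when only Te and T0 livers entered the fit. Fibrinogen did not pass in either chain (fga -0.03, fgb 0.08), and the sign of fga turned to 0.37 under median-of-ratios rescaling, to 0.25 without T0 liver 4 and to 0.01 without Te liver 1. Nor did c9, at 3675, 4225, 2749 and 2882 TPM in Te livers, against 2441, 2094, 2134 and 4300 TPM in T0 livers (0.35, SE 0.28).

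After 1 day of recovery 1 liver member had risen and 7 had fallen (8 of 32, against 27.3% of all genes, 9.99% higher and 17.3% lower). The pore gene c9 was the riser, with 4468, 5145, 8490 and 4988 TPM in R1d livers, against 2441, 2094, 2134 and 4300 TPM in T0 livers (1.09, SE 0.28, limma adjusted p = 0.00501). All R1d values lay above all T0 values, by a narrow margin at T0 liver 4, and without that liver the difference was 1.33. Among the falls, serpinh1b had 0.340, 1.18, 0.540 and 0.510 TPM in R1d livers, against 6.59, 4.04, 8.48 and 17.4 TPM in T0 livers (-2.48, SE 0.31, limma adjusted p = 1.02e-05), and no values overlapped. The other falls were f8 (-1.30), serpinf2a (-1.10), serpinf1 (-1.05), masp1 (-1.01), serpinh2 (-0.84) and f7l (-0.65). Rescaling ended the calls of serpinf1 (-0.80, limma adjusted p = 0.104) and f7l (-0.40, limma adjusted p = 0.161), and a pseudocount of 0.1 ended that of masp1 (limma adjusted p = 0.0525). Endothelial and stromal markers summed to 146 to 306 TPM in R1d livers (median 165) and 234 to 2557 TPM in T0 livers (median 511), and their part in the falls was not tested.

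Several of these liver calls rested on the livers that stood apart. Without T0 liver 4, 3 members were called higher and 5 lower. There, f8 was at -0.80 and stayed called, while masp1 (-0.79) and f7l (-0.35) lost their calls (limma adjusted p = 0.136 and 0.151). The call of masp1 also ended without T0 liver 3, R1d liver 1, R1d liver 3 or R1d liver 4 (limma adjusted p up to 0.160), and those of f7l and serpinf1 ended without R1d liver 3 (limma adjusted p = 0.109 and 0.0824). Without both livers 5 members were called, and with the R1d and T0 livers alone in the fit only serpinh1b was called. Without R1d liver 3 alone, 5 were called. The sign of c5 turned with T0 liver 4: its difference was -0.16 with that liver and 0.60 without it (limma adjusted p = 0.0471), as R1d livers had 406, 411, 554 and 380 TPM of c5. For f5 the difference was -0.54 with all livers, -0.97 without T0 liver 1 (limma adjusted p = 0.0322) and 0.14 without T0 liver 4. Of 9 further complement genes 2 rose and 4 fell after 1 day, and of 24 further clotting genes 1 rose and 5 fell. Of all genes 27.3% were called there, 9.99% higher and 17.3% lower.

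In spleen at the end of transport, most of the members called were higher, among them fibrinogen, plasminogen and C1 inhibitor genes. Of 31 members 14 rose and 3 fell (17 called, against 12.2% of all genes, 5.23% higher and 6.98% lower), with a median member difference of 1.26 beside -0.10 over all genes, and Te and T0 values did not overlap in 18 members, against 34.9% of all genes. The largest rise was that of fgb, with 55.3, 192, 23.2 and 164 TPM in Te spleens, against 12.3, 15.5, 6.41 and 3.05 TPM in T0 spleens. Every Te spleen lay above every T0 spleen, and Te spleens 2 and 4 were highest (3.17, SE 0.86, limma adjusted p = 0.0136). The C1 inhibitor gene serping1 had 16.9, 44.7, 6.52 and 51.9 TPM in Te spleens, against 2.66, 2.48, 1.51 and 1.55 TPM in T0 spleens (2.99, SE 0.65). Plasminogen gene plg had 11.3, 36.3, 4.14 and 33.0 TPM in Te spleens, against 2.45, 2.14, 1.07 and 0.790 TPM in T0 spleens (2.74, SE 0.66). Again no values overlapped, and Te spleens 2 and 4 led in both genes.

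The other rises were c8b (2.63), fga (2.61), serpind1 (2.25), serpinf2b (2.25), proca (2.18), c8a (1.91), f9a (1.41), c5 (1.35), f5 (1.33), serpinf2a (1.26) and, apart from the pathways, c1d (0.63), and Te spleens 2 and 4 were highest in all of these but f5 and c1d. The gene c9 had 18.6, 53.5, 8.84 and 69.1 TPM in Te spleens, against 9.07, 7.42, 3.45 and 3.23 TPM in T0 spleens, and did not pass (2.21, SE 0.89, limma adjusted p = 0.101), but rescaling brought it past the threshold (limma adjusted p = 0.0451), as did a fit of Te and T0 spleens alone (0.0254). Both of these settings also called c8g and f8. By role, 3 of 6 terminal complement genes, 2 of 4 clotting factors, 1 of 2 complement regulators, both fibrinogen chains and 5 of 8 anticoagulant and fibrinolysis genes, serpinf2a among them, rose. The genes c1qb, cfd, serpine2, serpina10a and serpinf1 did not pass, with log2 differences between -0.32 and -0.02.

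Between Te and T0 spleens, hepatocyte markers moved with these rises. Their summed level was 3024, 6619, 1335 and 7344 TPM in Te spleens, against 681, 496, 727 and 343 TPM in T0 spleens, with Te spleens 2 and 4 again highest. For 17 members with a mean of at least 100 TPM in T0 livers and under 20 TPM in T0 spleens, the mean spleen level was 1.11 to 4.06% of the mean liver level at Te (median 1.48%), against 0.0584 to 2.24% at T0 (median 0.113%). The highest at Te, f5, is among the 17 only through T0 liver 4 (452 TPM, against 44.5, 80.8 and 85.2 TPM in the other T0 livers). The lowest at T0, c5, also depends on T0 liver 4 (2330 TPM, against 263 to 314 TPM in the other T0 livers). For the 24 hepatocyte markers the median was 2.00% at Te (1.31 to 197%) and 0.119% at T0 (0.0277 to 409%). The marker cps1 was higher in spleen than in liver, at 409% at T0 and 197% at Te. The summed level of the 17 members was 183, 532, 84.4 and 543 TPM in Te spleens, and 58.2, 55, 36.2 and 31.5 TPM in T0 spleens. A later spleen, AB spleen 3 of day 4, had 671 TPM for the members and 5134 TPM for the markers. NO spleen 3 of day 4 had 5592 TPM of the markers but 124 TPM of the members. NO spleens 1, 2 and 4 of day 5 had 5450, 6029 and 5993 TPM of the markers. Their members summed to 97.1, 369 and 253 TPM. Without rbp4 the marker sum was 4830 TPM in that AB spleen and 1189, 371, 1732 and 1159 TPM in those NO spleens. Only rbp4 was left out of that sum, although the marker list as set holds it, and cps1 was kept. Mean rbp4 was 3471 TPM in NO, 177 TPM in AB, 1142 TPM in Te and 356 TPM in T0 spleens. The part of hepatocyte RNA in the spleen values was not tested.

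**Figure D3:**
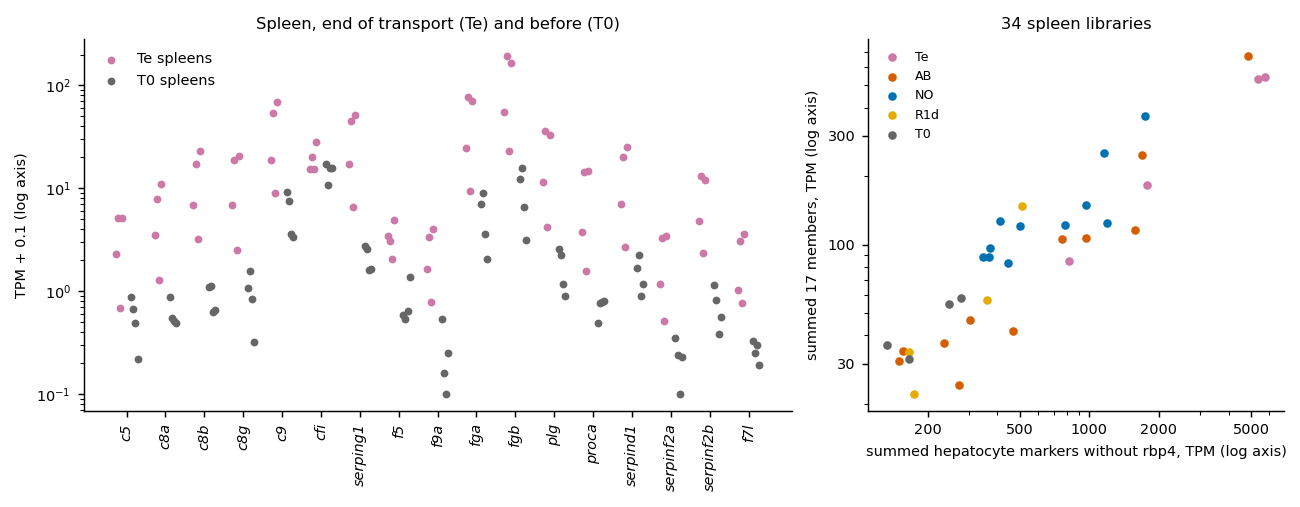
Left, spleen TPM + 0.1 on a log axis of 17 members in the 4 Te and the 4 T0 spleens; right, for each of 34 spleen libraries, the summed TPM of those 17 members against the summed TPM of 23 hepatocyte markers (rbp4 left out), both on log axes. Te spleens 2 and 4 and AB spleen 3 of day 4 lie at the upper right, with 532, 543 and 671 TPM of the members. With rbp4 the marker sum was 2328 to 6029 TPM in NO spleens and 1335 to 7344 TPM in Te spleens.

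The 3 members that fell in spleen at the end of transport were the serpinh genes. Collagen chaperone gene serpinh1a had 41.4, 31.1, 44.3 and 48.9 TPM in Te spleens, against 101, 98.3, 100 and 139 TPM in T0 spleens (-1.39, SE 0.38, limma adjusted p = 0.0156). Its paralogue serpinh1b had 20.3, 13.7, 27.6 and 22.8 TPM in Te spleens, against 49.6, 44.9, 56.5 and 74.0 TPM in T0 spleens (-1.39, SE 0.43, limma adjusted p = 0.0290), and serpinh2 fell as well (-1.07, SE 0.27). None of the 3 had overlapping groups. The markers of endothelial and stromal cells summed to 1912 to 2463 TPM in Te spleens and 2461 to 3539 TPM in T0 spleens, and their part in the falls was not tested.

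Single libraries decided part of these spleen calls. Without Te spleen 2 the count of called members was 9, and without T0 spleen 4 it was 11. The call of fga ended on leaving out any of 6 of the 8 spleens, the exceptions being T0 spleen 2 and Te spleen 3, with differences of 2.22 to 2.77. The call of fgb ended without T0 spleen 4 (2.79) or Te spleen 2 (2.75), that of serpind1 without Te spleen 2 (1.94) or Te spleen 4 (1.84), and that of c8a without either of those Te spleens (limma adjusted p up to 0.0702). The call of c5 ended without T0 spleen 3, T0 spleen 4, Te spleen 2 or Te spleen 4 (1.34, 1.23, 1.12 and 1.12). That of serpinh1a ended without T0 spleen 4 (-1.27) or Te spleen 2 (-1.26), that of serpinh1b without T0 spleen 3 (-1.38), T0 spleen 4 (-1.25), Te spleen 1 (-1.39) or Te spleen 2 (-1.21), or with a pseudocount of 0.1 (limma adjusted p = 0.0726), and that of c1d without any single one of 7 of the 8 spleens, all but Te spleen 4 (limma adjusted p up to 0.124).

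The changes at the end of transport were set against each other between tissues in 1 fit of all 18 groups. The liver change was below the spleen change in 14 of 33 members and above it in 0 (against 6.48% of all genes, 2.06% above and 4.43% below), led by serping1 (-3.24), plg (-3.22), fgb (-3.09), c8b (-2.83) and f8 (-2.81). For serping1, plg and fgb the liver change itself was not called (-0.25, -0.48 and 0.08). Without T0 liver 4 it was 0.01, -0.11 and 0.24. For f8 the tissues went opposite ways in their values: Te spleens had 17.3, 14, 13.3 and 18.0 TPM against 6.60, 3.68, 2.74 and 9.61 TPM in T0 spleens (1.43, limma adjusted p = 0.0676, not called), while f8 fell in Te livers. The spleen difference of f8 was called after median-of-ratios rescaling and with Te and T0 spleens alone in the fit. The count was 8 without T0 liver 4 and 9 without either Te spleen 2 or Te spleen 4, and 2 members were above and 9 below after median-of-ratios rescaling. The call of fgb here ended without T0 liver 4, T0 spleen 3, T0 spleen 4, Te spleen 2 or Te spleen 4 (limma adjusted p up to 0.0812). Rescaling ended the calls of c8a, f5, f7l, f9a and serpind1, and with the compared libraries alone these and c5 were not called. Without T0 liver 4 the difference of c5 was -1.37, against -2.13 with it, and that of f5 was -1.09, against -1.77, and neither was called.

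After 1 day the spleen pattern was a different one. Of 31 members 2 rose and 9 fell (11 called, against 20.1% of all genes, 4.17% higher and 15.9% lower). The fibrinogen genes no longer passed, with fgb at 8.53, 13.9, 3.68 and 36.6 TPM in R1d spleens, against 12.3, 15.5, 6.41 and 3.05 TPM in T0 spleens (0.48, SE 0.86). The risers were the paired cofactor genes f5 and f8. Cofactor gene f5 had 2.03, 3.36, 4.22 and 13 TPM in R1d spleens, against 0.490, 0.430, 0.540 and 1.27 TPM in T0 spleens, without overlap (1.75, SE 0.36, limma adjusted p = 0.00127). Its mean spleen level was 7.46% of the mean liver level at R1d, where the median of the 17 members was 0.219%. It belongs to those 17 only through T0 liver 4, which had 452 TPM of it, against 44.5 to 85.2 TPM in the other T0 livers. Cofactor gene f8 had 16.8, 6.80, 53.2 and 41.5 TPM in R1d spleens, against 6.60, 3.68, 2.74 and 9.61 TPM in T0 spleens, with overlap (1.96, SE 0.52), and its call ended without R1d spleen 3 (1.56, limma adjusted p = 0.0605).

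The spleen falls after 1 day covered starters, factor D and several serpins. Spleens at R1d had 525, 737, 173 and 688 TPM of c1qb, against 1699, 2553, 1401 and 1808 TPM in T0 spleens (-1.97, SE 0.39, limma adjusted p = 0.00105). Of cfd they had 1273, 1690, 974 and 645 TPM, against 3579, 3145, 3516 and 3264 TPM in T0 spleens (-1.64, SE 0.42). Of serpinf1 they had 80.7, 96.8, 19.0 and 77.0 TPM, against 488, 300, 386 and 487 TPM in T0 spleens (-2.78, SE 0.45, limma adjusted p = 0.000161). In none of these 3 genes did the groups overlap, and R1d spleen 3 was lowest in c1qb and serpinf1.

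The other 6 falls were serpinh1b (-2.88), masp1 (-1.56), serpinh1a (-1.49), serpini1 (-1.21), serpinh2 (-1.20) and serpine2 (-0.91), the last of which encodes a thrombin inhibitor bound to cell surfaces. The call of serpinh1a ended without R1d spleen 3 (-1.05, limma adjusted p = 0.0573), and that of serpine2 without R1d spleen 3 or T0 spleen 4 (limma adjusted p up to 0.147). Macrophage markers summed to 331 to 686 TPM in R1d spleens and 822 to 1582 TPM in T0 spleens, and endothelial and stromal markers to 809 to 2288 TPM in R1d spleens and 2461 to 3539 TPM in T0 spleens. The part of these cells was not tested. With the R1d and T0 spleens alone in the fit 2 members were called, serpinh1b and serpinf1.

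Between the labels, the spleen differed from the liver in which members moved. Over the mean of the 3 days 1 spleen member was higher in AB fish and 8 were lower (9 of 31 called, against 61.9% of all genes, 7.75% higher and 54.2% lower). The median member difference was -0.36, beside -0.51 over all genes, and 4 members had labels that did not overlap, against 21.4% of all genes. Median-of-ratios rescaling moved the median of all genes by 0.53 to 0.01, and then 5 members were called higher and 6 lower.

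Thrombin inhibitor gene serpine2 had 11.5 to 45.2 TPM in AB spleens (median 28.9, n = 11), against 71.7 to 96.3 TPM in NO spleens (median 83.9), without overlap (-1.58, SE 0.17). Against T0, serpine2 was lower in AB spleens (-1.16, SE 0.24), and in NO spleens it did not pass (0.42, SE 0.24). With NO and T0 spleens alone in the fit serpine2 was called, and all NO spleens lay above all T0 spleens (59.8 to 63.2 TPM).

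Cofactor gene f5 had 0.460 to 2.98 TPM in AB spleens (median 1.36), against 3.11 to 11 TPM in NO spleens (median 6.18), without overlap (-1.63, SE 0.22, limma adjusted p = 2.30e-07). For c1qb AB spleens had 321 to 1423 TPM (median 838), against 1507 to 2636 TPM in NO spleens (median 2204), again without overlap (-1.42, SE 0.24). Factor I gene cfi had 3.83 to 21.0 TPM in AB spleens and 17.1 to 32.3 TPM in NO spleens (-1.26, SE 0.22), and serpinh2 had 0.350 to 2.29 TPM in AB spleens and 1.67 to 3.87 TPM in NO spleens (-0.69, SE 0.16). The calls of these 4 genes, of serpine2 and of masp1 (0.51, SE 0.19) held after rescaling. The genes cfd (-1.21) and f8 (-1.10) lost theirs, cfd at -0.55 (limma adjusted p = 0.0613), while serpinh1b was then called higher in AB spleens at 0.76, against 0.24 without rescaling.

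**Figure D4:**
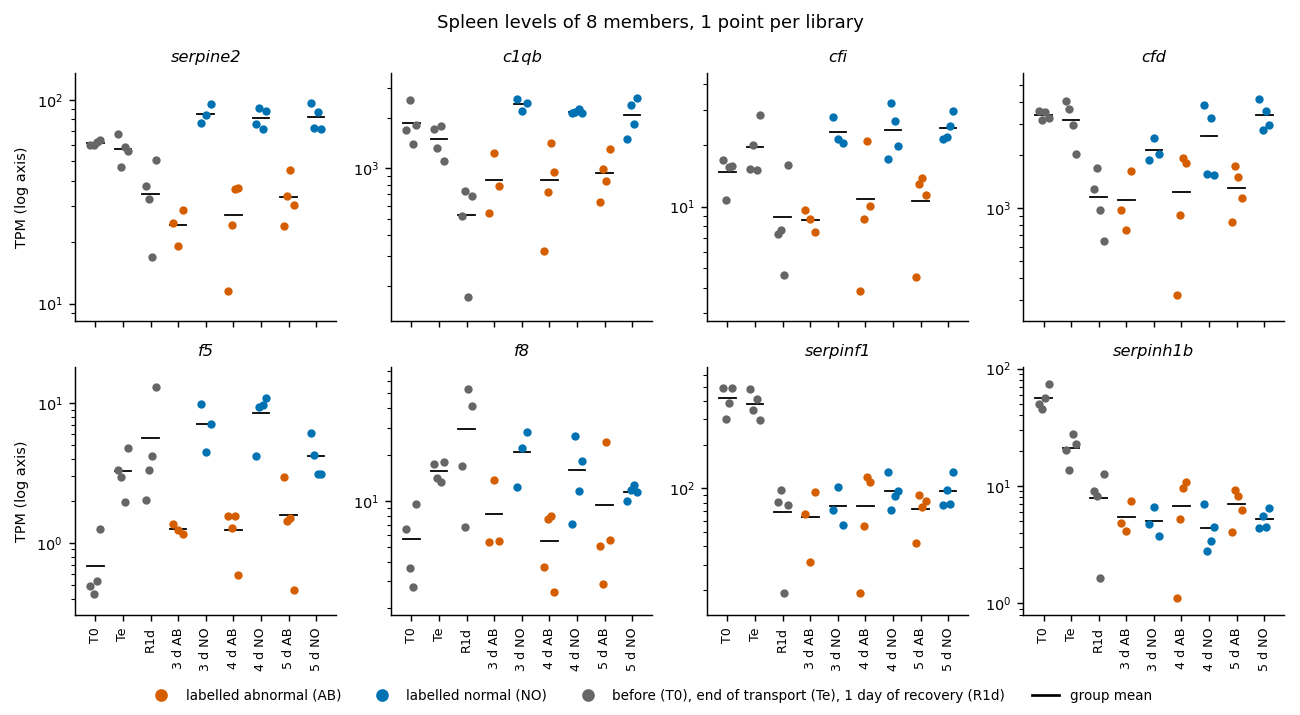
Spleen TPM on log axes of 8 members in the 9 groups, 1 point per library and a bar at the group mean. All 11 AB spleens lie below all 11 NO spleens in serpine2, c1qb and f5, and serpinh1b is below its T0 values in every later spleen.

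By day, 6 spleen members were lower in AB fish on day 3 (against 33.5% of all genes, 2.07% higher and 31.4% lower), 8 on day 4 (against 42.1%, 4.74% higher and 37.4% lower) and 7 on day 5 (against 31.2%, 5.13% higher and 26.1% lower). No member was called higher on any of the 3 days. After rescaling the splits were 2 higher and 3 lower, 4 and 4, and 3 and 4. Leaving out any 1 of the 6 spleens of day 3 brought its count to 4 or 5, and the call of serpinh2 ended each time. Without AB spleen 1 of day 4 the count for day 4 was 4, and without AB spleen 1 of day 5 the count for day 5 was 3. A moderated F test of a change with day called 0 members and 3 of all genes by limma (0.0167%), with 0 members and 254 genes at an unadjusted p under 0.05. Of the 17 members that were high in T0 livers (f5 only through T0 liver 4) and low in T0 spleens, f5 and cfi were called lower in AB spleens. The others did not pass, apart from f7l, which was not tested in spleen. Of those that did not pass, fgb had 5.86 to 196 TPM in AB spleens and 11.1 to 121 TPM in NO spleens (-0.48, SE 0.52). Rescaling turned the signs of fga, fgb, plg and serping1 to 0.14, 0.15, 0.20 and 0.24. The gene c9 did not pass either (-0.69, SE 0.54), but without AB spleen 3 of day 4 it did (-1.08, limma adjusted p = 0.0364).

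Spleens of both labels were also set against T0. In AB spleens 1 member was higher and 9 lower than at T0 (10 of 31, or 32.3%, against 28.6% of all genes, 3.41% higher and 25.2% lower), and in NO spleens 5 were higher and 5 lower (32.3% of members, against 32.1%, 21.5% higher and 10.6% lower), or 4 and 6 after rescaling. The T0 spleens are shared by both. Lower under both labels were serpinh1b, serpinf1, serpinh1a, masp1 and serpinh2. For serpinh1b AB spleens had 1.12 to 10.8 TPM (-3.05, SE 0.35) and NO spleens 2.78 to 7.01 TPM (-3.29, SE 0.35), against 49.6, 44.9, 56.5 and 74.0 TPM in T0 spleens. Higher in NO spleens were, among others, c8g (2.12), f5 (2.11), f8 (1.37) and c1d (0.64). The call of c8g ended without T0 spleen 3 or 4 (limma adjusted p up to 0.0732), that of f8 without T0 spleen 2 or 3 (up to 0.0881), and those of c1d and serpini1 in AB spleens without T0 spleens 3 or 4 (up to 0.123) and T0 spleen 2 (0.0922). With NO and T0 spleens alone in the fit, 22 members were called in NO spleens, 16 higher and 6 lower.

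Cell markers also differed between the labels in spleen. Red blood cell markers summed to 27794 to 136747 TPM in AB spleens and 483 to 8789 TPM in NO spleens. The 7 thrombocyte markers, the fish counterpart of platelets, summed to 656 to 1671 TPM in AB spleens and 172 to 442 TPM in NO spleens. Macrophage markers, which matter for c1qb, summed to 222 to 898 TPM in AB spleens and 882 to 1579 TPM in NO spleens, and the 6 neutrophil markers to 175 to 1185 TPM in AB spleens and 1056 to 2252 TPM in NO spleens. Hepatocyte markers summed to 207 to 5134 TPM in AB spleens and 2328 to 6029 TPM in NO spleens, of which rbp4 averaged 177 TPM in AB and 3471 TPM in NO spleens. The part of these cells in the member differences was not tested. Of the further clotting genes, the thrombocyte genes gp9 (3.13) and itga2b (2.66), which are also among those markers, were the largest rises in AB spleens, and pros1, which encodes the protein C cofactor protein S, was the largest fall (-2.27), in 6 higher and 10 lower of 23. Of 9 further complement genes 1 was higher and 4 lower, with c7b at 0.900 to 35.6 TPM in AB spleens and 69.4 to 224 TPM in NO spleens (-4.39, SE 0.45). Beside the counts of both lists, 61.9% of all genes were called, 7.75% higher and 54.2% lower.

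**Figure D5:**
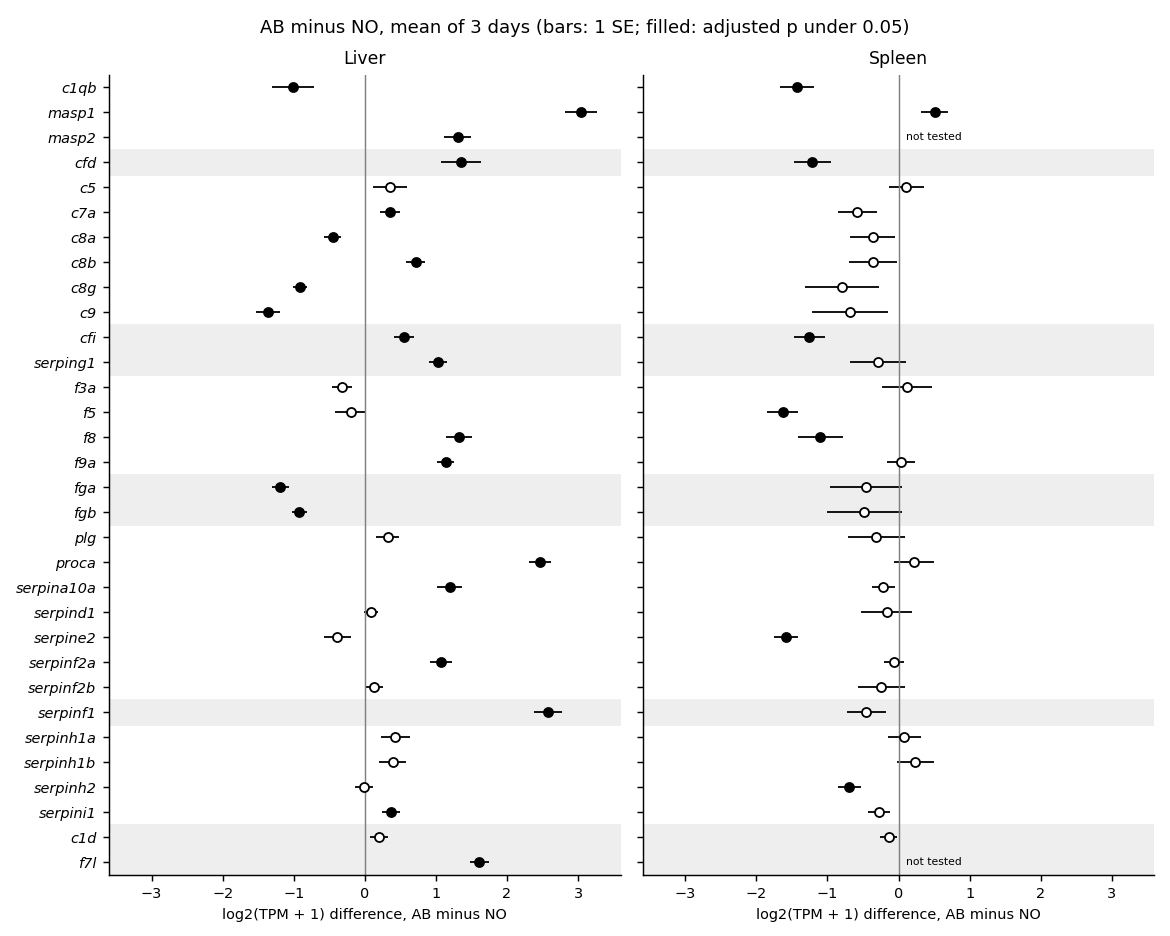
Difference of log2(TPM + 1) between AB and NO fish, mean of 3 days, for 32 members in liver and spleen, ordered by role; bars are 1 SE and filled points passed the test. The values run from -1.36 (c9) to 3.04 (masp1) in liver and from -1.63 (f5) to 0.51 (masp1) in spleen.

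The label differences of the tissues were also compared with each other. The liver difference exceeded the spleen difference in 19 of 33 members and was below it in 0 (against 54.2% of all genes, 47.4% above and 6.74% below), with a median member value of 0.93 beside 0.55 over all genes. Among the largest were serpinf1 (3.03), cfd (2.57), masp1 (2.53), f8 (2.42), proca (2.24) and cfi (1.80). For cfd, f8 and cfi the labels were reversed between tissues: all 3 were higher in AB livers and lower in AB spleens, although the spleen calls of cfd and f8 did not hold after rescaling. The gene c1qb was lower in AB fish in both tissues, and its tissue difference did not pass (0.42, SE 0.39). After median-of-ratios rescaling 15 members were above and 2, c9 and fga, below, and c8b, serping1, serpinh2 and serpini1 were no longer called. Without rescaling the tissue difference of fga was -0.73 (SE 0.53, limma adjusted p = 0.246).

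Across the groups serpinh1b was the one member called lower than T0 in every comparison with T0 made here, in Te, R1d, AB and NO livers and spleens alike, but both Te calls ended with a pseudocount of 0.1 and on leaving out any of 4 of the 8 libraries. Its liver levels after T0 and Te were 0.180 to 2.57 TPM and its spleen levels after Te 1.12 to 12.7 TPM. Since these comparisons share the T0 libraries of a tissue, they are not separate checks of one another.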

How the data were processed

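RNA from liver and spleen of largemouth bass was depleted of ribosomal RNA and made into strand-marking libraries, per the labels' protocols. The authors deposited TPM values per gene, 1 column per library; fastp 0.23.2 and Salmon 1.10.0 are named in the submitters' processing notes. The genome build, annotation and read numbers are not given in the sources used here. TPM sums were 995833 to 999254 per library, and 10814 to 14472 genes reached 1 TPM in livers and 13320 to 16846 in spleens, so precision rests on the spread between fish. A reference table of assembly ASM1485139v1 served only to look up names.

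A gene entered the fit of a tissue when 3 or more libraries held 1 TPM or more of it. Values were fitted on log2(TPM + 1) with limma 3.58.1 in R 4.3.3, with 9 groups per tissue (25 residual degrees of freedom), an intensity trend and Benjamini-Hochberg adjustment over all genes tested. Tissues were compared in 1 fit of 18 groups that takes liver and spleen libraries as independent, since the labels do not say whether those of 1 number come from 1 fish. AB minus NO is the mean of 3 daily differences. Tables and figures used Python 3.11.15, numpy 2.4.6, pandas 2.3.3 and matplotlib 3.10.9. The fits were tested on simulated data. Named members were, per main comparison, up to 6 largest rises and 6 largest falls past the threshold whose higher group averaged 5 TPM or more, plus a fixed list of core genes; other members named for context were chosen after their values were seen. Counts cover all 33 members, 1 of which is not reported here by itself. The members, lists and tests were chosen with earlier results of these data known. Alternatives were a pseudocount of 0.1, no filter, median-of-ratios rescaling, the compared libraries alone, a replicate block, leaving out each library, and, chosen after seeing the data, leaving out both livers that stood apart. No 2 libraries of a group were duplicates: in 96 pairs at least 17643 genes differed.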

Additional observations from a re-analysis of the deposited data

Results flagged for a closer look

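In 263 groups of 4 libraries, each for 1 member, the gap between the library farthest out and the next value was set against the range of the group. By this measure 23 values lay far from the other 3. The cutoff flags about 1 in 20 groups when values are independent and normally distributed. TPM values of several genes from the same libraries need not be so, and the chance rate here is unknown. T0 liver 4 accounts for 10 of the 23: c5 (2330 TPM), c8a (830 TPM), c9 (4300 TPM), cfi (1230 TPM), f5 (452 TPM), f7l (345 TPM), f8 (30.1 TPM), serpind1 (1221 TPM), serpinf2a (302 TPM) and serping1 (3808 TPM). In AB spleen 3 of day 4 the genes were c8a (9.97 TPM), c8g (63.3 TPM), c9 (173 TPM) and fga (94.3 TPM). In AB spleen 3 of day 5 it was f8 (24.0 TPM). In T0 spleen 4 the genes were masp1 (12.8 TPM) and serpinh1a (139 TPM). Single genes stood out in AB liver 4 of day 5 (c1qb at 73.9 TPM), R1d liver 3 (c9 at 8490 TPM), Te spleen 4 (f3a at 9.22 TPM), NO spleen 3 of day 5 (f3a at 23.1 TPM), AB liver 1 of day 5 (f8 at 7.03 TPM) and T0 liver 3 (proca at 385 TPM).

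The change at the end of transport differed between tissues, by limma's test of liver change minus spleen change, for c5 (-2.13), c8a (-1.96), c8b (-2.83), f5 (-1.77), f7l (-1.46), f8 (-2.81), fgb (-3.09), plg (-3.22), proca (-2.53), serpind1 (-2.03), serpinf2a (-2.0) and serping1 (-3.24) on the log2 scale. Of these, c8a, f5, f7l and serpind1 were not called after rescaling, and these and c5 were not called with the compared libraries alone. Without T0 liver 4 c5 moved to -1.37 and f5 to -1.09, and the call of serpind1 ended on leaving out any of 9 of 16 libraries (limma adjusted p up to 0.131). The difference of AB and NO fish also differed between tissues, by the same kind of test of liver difference minus spleen difference, for c8b (1.07), cfd (2.57), cfi (1.80), f5 (1.43), f7l (1.54), f8 (2.42), masp1 (2.53), proca (2.24), serpine2 (1.20), serpinf1 (3.03), serpinf2a (1.13), serping1 (1.32) and serpinh2 (0.68). Rescaling ended the calls of c8b, serping1 and serpinh2.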

How the results depend on the processing

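Replicates share only a number across groups: same-numbered livers of different groups had a median correlation of deviations of -0.004 and spleens -0.01. Liver and spleen of 1 condition and number had a median correlation of 0.23, which was over 0.1 in 23 of 34 pairs, and 23 of 34 livers were closest to the spleen of their own number. In comparisons between tissues the replicate block was 1 term per condition and number, as for a shared fish, and it kept all 27 calls at T0, 14 at Te and 19 for AB minus NO. A fit with the replicate number as a block changed the call of 0 of 83 named results, and 21 liver members were called for AB minus NO under it. Without a filter 83 of 83 and with a pseudocount of 0.1, 79 of 83 named results kept direction and side of the threshold, after rescaling 66 and with the compared libraries alone 64. With the compared libraries alone, called members numbered 0 in Te livers, 1 in R1d livers, 2 in R1d spleens, 22 in NO against T0 spleens and 9 for the tissue difference at Te. Without both livers that stood apart, 5 were called in R1d livers. Leaving out 1 library at a time gave 1 to 4 in Te livers, 5 to 10 in R1d livers, 2 to 7 in AB against T0 livers, 9 to 17 in Te spleens, 4 to 9 for AB minus NO in spleen on day 4, 3 to 7 on day 5, and 8 to 15 for the tissue difference at Te. For AB minus NO in spleen on day 3 it gave 4 to 5. The same comparison in liver gave 10 to 14 on day 3, 15 to 18 on day 4 and 14 to 16 on day 5. Rescaling turned the sign in R1d livers of c5 (0.092), plg (0.12) and serping1 (0.00091), in Te livers of f3a (0.16), fga (0.37) and serping1 (0.15), and for AB minus NO in spleen of fga (0.14), fgb (0.15), plg (0.20) and serping1 (0.24). Without both livers the sign turned in R1d livers for c5 (0.48), f5 (0.30), plg (0.33) and serping1 (0.13). Where leaving out 1 library turned a sign, the log2 differences ranged as follows. For liver R1d minus T0 the range was -0.45 to 0.60 in c5, -0.97 to 0.14 in f5, -0.13 to 0.30 in fga, -0.050 to 0.22 in fgb, -0.34 to 0.24 in plg and -0.37 to 0.015 in serping1. For spleen R1d minus T0 the range was -0.038 to 0.51 in c5, -0.31 to 0.59 in c9, -0.055 to 0.94 in fga, -0.044 to 0.96 in fgb, -0.021 to 0.79 in plg and -0.031 to 0.76 in serping1. For spleen AB minus NO the range was -0.027 to 0.19 in c5 and -0.032 to 0.39 in f3a. For liver Te minus T0 the range was -0.87 to 0.24 in f5, -0.18 to 0.25 in fga, -0.024 to 0.24 in fgb and -0.38 to 0.0099 in serping1. The cause of these changes was not tested. Rescaling moved the median of all genes by -0.49 to 0.98 on the log2 scale, by comparison. TPM keeps no depth, so counting error of low members is unknown.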
